A study of Mus musculus with 6 samples.

Results

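The 10 genes described here encode the 5 subunits of the transcription factor NF-kB and 5 proteins of the IkB family that bind them. They were taken by symbol from a table of 17191 genes, and all 10 were found and passed the filter on low counts. The subunits are Nfkb1, Nfkb2, Rel, Rela and Relb. The IkB genes are Nfkbia, Nfkbib, Nfkbie, Nfkbiz and Bcl3.

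The cells came from tumours that CT26, a mouse colorectal cancer line, formed under the skin of female BALB/c mice. At an age of 6 to 8 weeks the mice were given vehicle (3 libraries) or the compound TP-18 (3 libraries), by mouth every day at 50 mg/kg over 3 weeks. The labels differ on which cells were kept: macrophages sorted for CD11b, F4/80 and CD206 in the design text, CD11b+ cells from bead selection in the protocol, and CT26 itself as the cell line entry. Whether each library is a separate mouse is not said, and p-values then describe only the spread between these libraries, part of which may be technical. In such bulk RNA, fewer cells of a type and less RNA per cell cannot be told apart.

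NF-kB is a family of dimers that switch on inflammatory and survival genes in macrophages. In resting cells the dimers are held in the cytoplasm by IkB proteins, and signals from cytokine and Toll-like receptors lead the IkB kinase to mark these for destruction. Several members are themselves targets of NF-kB, which gives the pathway feedback loops. Nfkb1 and Nfkb2 make the precursors p105 and p100, which are processed to the DNA-binding subunits p50 and p52. Rela (p65), Rel (c-Rel) and Relb carry the activation domains.

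The libraries held 16371128 to 17597645 counts. The markers named in the sort were abundant in both groups: the integrin gene Itgam (CD11b) had 1012 ± 272 CPM with vehicle and 889.8 ± 112 CPM with TP-18, the scavenger receptor gene Mrc1 (CD206) had 977 ± 412 and 776 ± 136 CPM, and Adgre1 (F4/80) had 192 ± 98.0 and 191 ± 75.7 CPM (SD, n = 3 each). CPM give a gene's count relative to the TMM-scaled library size. Vehicle 1 stood closer over all genes to TP-18 3 (correlation of log2 CPM across genes 0.974) than to vehicle 2 (0.952).

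All 10 genes had a lower mean in the TP-18 libraries, with a median log2 fold change of -0.88 against 0.02 over the 12721 genes tested, of which 47.4% were below 0. The smallest differences were those of Nfkbiz, Rel and Nfkb2, and the other 7 genes lay at 0.464 to 0.566 times their vehicle level. With edgeR's quasi-likelihood test and adjustment over all genes, 0 of the 10 passed the threshold of 0.05 (adjusted p = 0.0756 to 0.419), where 0.0865% of all genes were called lower and 0.0236% higher. At an unadjusted p under 0.05, 8 of the 10 were lower and 0 higher, against 8.7% and 7.56% of all genes. In 8 of the 10 every TP-18 library lay below every vehicle library, against 11.7% of all genes, and 23.3% of all genes were separate in either direction. DESeq2 called 7 of the 10 lower, against 2.51% of the genes to which it gave an adjusted p, while limma-voom and limma on FPKM values called 0.

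**Figure D1:**
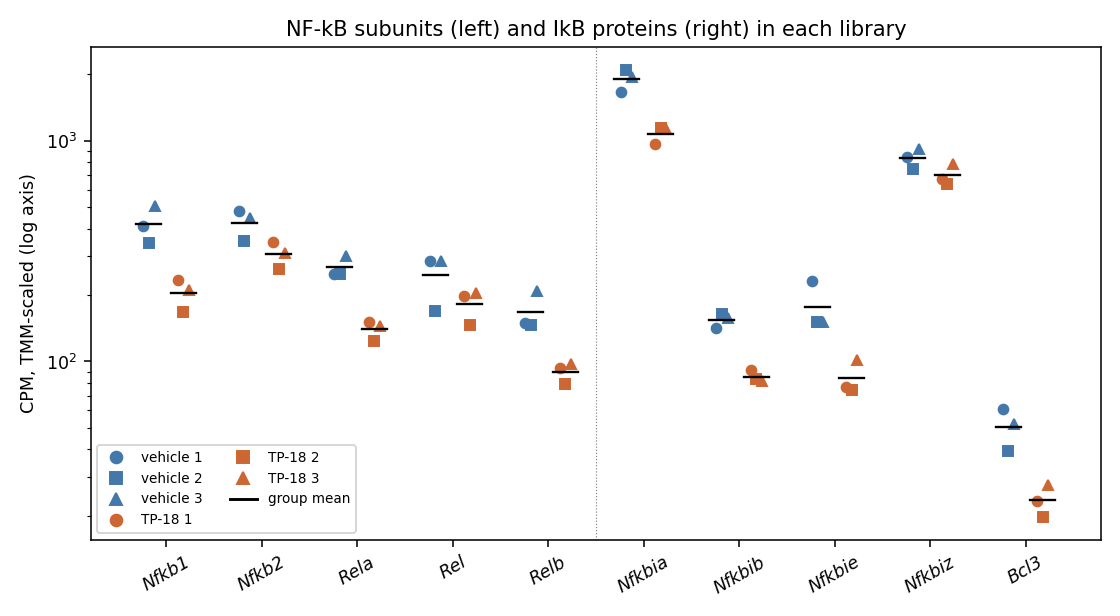
TMM-scaled CPM on a log axis of the 5 subunit genes (left of the dotted line) and the 5 IkB genes (right) in each of the 6 libraries; symbols give the replicate number, black bars the group means. The groups overlap in Rel and Nfkbiz and are separate in the other 8 genes.

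Nfkb1, which encodes p105 and p50, had 409, 343 and 504 CPM in vehicle 1, 2 and 3 and 234, 168 and 211 CPM in TP-18 1, 2 and 3. Every TP-18 library was below the lowest vehicle library. The fitted log2 fold change was -1.04 ± 0.20 (SE), with an edgeR adjusted p = 0.115. Nfkb2, which encodes p100 and p52 of the noncanonical branch, had 479, 352 and 445 CPM in vehicle and 347, 263 and 312 CPM in TP-18 libraries. Its groups were separated by little, with vehicle 2 just above TP-18 1, and they overlapped in FPKM, which are scaled by library totals. The log2 fold change was -0.47 ± 0.17, with a 95% interval of -0.87 to -0.07 before any adjustment for the number of genes and an edgeR adjusted p = 0.255.

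Rela, the most studied activating subunit, had 249, 249.9 and 301 CPM in vehicle libraries and 152, 124 and 145 CPM in TP-18 libraries. The groups were far apart relative to their spread, at 267 ± 29.5 and 140.1 ± 14.7 CPM (SD, n = 3 each). The log2 fold change was -0.93 ± 0.15 with an edgeR adjusted p = 0.0863, and Rela stood 41st in order of p among all genes. Relb, the partner of p52, had 149, 146 and 208 CPM in vehicle and 93.0, 79.0 and 97.8 CPM in TP-18 libraries, again without overlap. Its log2 fold change was -0.90 ± 0.18 (edgeR adjusted p = 0.131). Rel, a subunit typical of lymphoid and myeloid cells, had 286, 169 and 285 CPM in vehicle and 198, 147 and 204 CPM in TP-18 libraries. Vehicle 2 lay below TP-18 1 and TP-18 3, so the groups overlapped. The log2 fold change of Rel was -0.43 ± 0.24, with a 95% interval of -0.98 to 0.12 (edgeR adjusted p = 0.409).

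Among the cytoplasmic inhibitors, Nfkbia encodes IkB-alpha, the fast feedback inhibitor that NF-kB induces. It had 1665, 2098 and 1955 CPM in vehicle and 963, 1144 and 1129 CPM in TP-18 libraries, with no overlap. The log2 fold change was -0.82 ± 0.15 (edgeR adjusted p = 0.102). Nfkbib encodes IkB-beta, a slower inhibitor. It had 142, 164 and 158 CPM in vehicle and 91.2, 82.9 and 81.3 CPM in TP-18 libraries, the tightest groups of the 10 genes relative to their means. Its log2 fold change of -0.86 ± 0.13 gave the smallest adjusted p of the 10 (edgeR adjusted p = 0.0756, 25th in order of p). Nfkbie, which encodes IkB-epsilon, had 231, 150.3 and 151 CPM in vehicle and 76.9, 74.0 and 101 CPM in TP-18 libraries. Vehicle 1 stood above the other vehicle libraries, and the groups did not overlap. The log2 fold change was -1.08 ± 0.22 (edgeR adjusted p = 0.135), and -0.87 without vehicle 1.

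The 2 nuclear members act on NF-kB bound to DNA. Bcl3, a coactivator and repressor that works with p50 and p52 homodimers, had 61.0, 39.3 and 51.8 CPM in vehicle and 23.4, 19.7 and 27.5 CPM in TP-18 libraries. The groups did not overlap, and the log2 fold change of -1.11 ± 0.21 had an edgeR adjusted p = 0.111. Nfkbiz encodes IkB-zeta, an inducible cofactor for secondary response genes such as Il6. It had 844, 748 and 921 CPM in vehicle and 673, 637 and 785 CPM in TP-18 libraries. TP-18 3 lay above vehicle 2, so the groups overlapped. The log2 fold change of Nfkbiz was -0.26 ± 0.15, with a 95% interval of -0.61 to 0.08 (edgeR adjusted p = 0.419).

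The size of these differences depended on how the libraries were scaled. The TMM factors were 0.924 to 0.962 in vehicle and 1.05 to 1.07 in TP-18 libraries. With library totals instead, the median of all genes moved from 0.02 to 0.20 and the median of the 10 genes from -0.88 to -0.70. In FPKM, 7 of the 10 genes still had every TP-18 library below every vehicle library, against 4.76% of all genes. All 10 fitted values remained negative under the 3 scalings plotted.

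**Figure D2:**
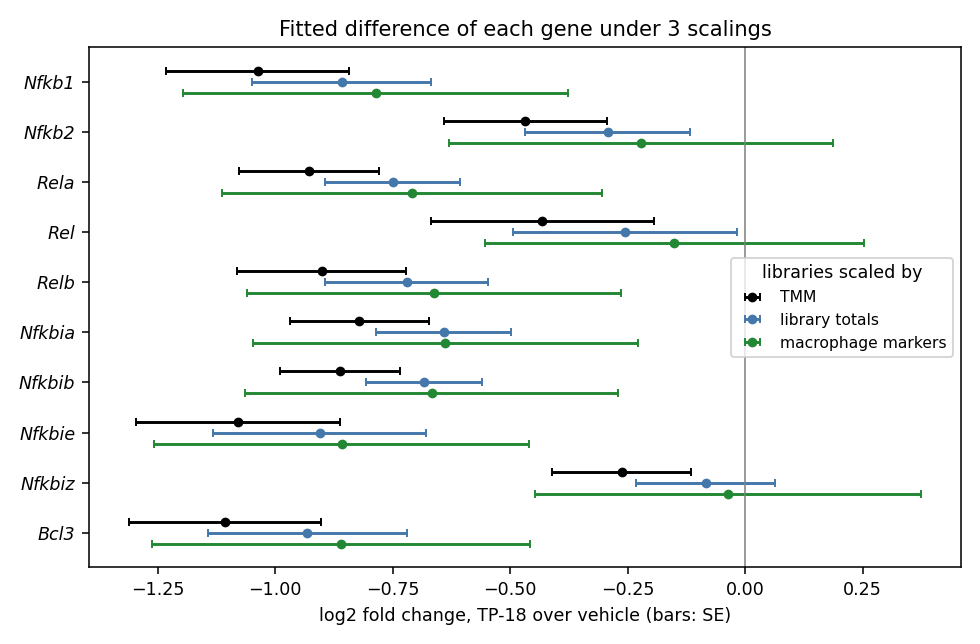
Fitted log2 fold changes of TP-18 over vehicle (horizontal axis, bars are SE) for each gene with libraries scaled by TMM, by library totals or by the counts of the macrophage marker list. All points lie left of 0, and those of Nfkbiz, Rel and Nfkb2 lie closest to it.

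A ratio between genes within a library does not depend on that scaling. FPKM relative to Rela were therefore compared between the groups for the other 9 genes, with an exact two-sided permutation test whose smallest p with 3 against 3 libraries is 0.1. Nfkbiz had 2.50, 2.21 and 2.27 times the FPKM of Rela in vehicle 1, 2 and 3 and 3.28, 3.82 and 4.00 times in TP-18 1, 2 and 3. This is a difference of 0.67 in the log2 ratio (exact permutation p = 0.1, adjusted over the 9 ratios 0.3). The ratio of Rel to Rela was 0.441, 0.260 and 0.364 in vehicle and 0.503, 0.457 and 0.539 in TP-18 libraries, a log2 difference of 0.52 with the same p-values. The ratio of Nfkb2 to Rela was 0.502, 0.368 and 0.386 in vehicle and 0.599, 0.556 and 0.561 in TP-18 libraries, a log2 difference of 0.46, again with exact permutation p = 0.1 and 0.3 after adjustment. The sizes of these ratios rest on the gene lengths behind the FPKM, but their log2 differences between the groups do not. In these 3 genes each TP-18 library lay above every vehicle library. With the geometric mean of Rela and Nfkbib as reference this remained for Nfkbiz and Nfkb2, while the groups of Rel overlapped (log2 difference 0.49, exact permutation p = 0.2), and without vehicle 2 the difference of Rel to Rela was 0.31. Such a separation from Rela was common: 79.6% of 12654 genes were higher in this sense and 0.158% lower, with a median log2 difference of 0.96.

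The other 6 genes had ratios to Rela whose groups overlapped. The log2 differences were 0.11 for Nfkbia, 0.07 for Nfkbib, 0.04 for Relb, -0.10 for Nfkb1, -0.13 for Nfkbie and -0.17 for Bcl3, with exact permutation p-values of 0.3 to 0.8. The ratio of Relb to Rela, for example, was 0.279, 0.272 and 0.322 in vehicle and 0.286, 0.298 and 0.314 in TP-18 libraries. Such p-values do not show that the ratios were equal.

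**Figure D3:**
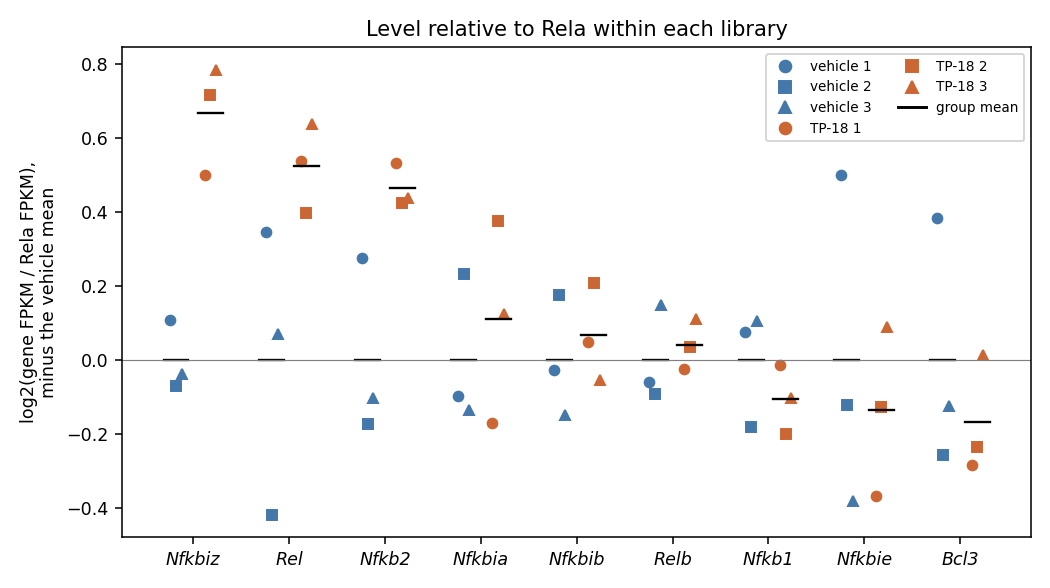
Log2 of each gene's FPKM over that of Rela, minus the vehicle mean, in each library; black bars are group means. The TP-18 libraries lie above all vehicle libraries for Nfkbiz, Rel and Nfkb2 and mix with them for the other 6 genes.

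Levels between genes were compared in FPKM, per kilobase of gene length. Nfkbia was the most abundant of the 10, at 1133 ± 114 FPKM in vehicle and 726 ± 72.4 FPKM in TP-18 libraries (SD, n = 3 each). Nfkbiz came next, at 203 ± 20.3 and 191 ± 21.9 FPKM, and both were above all other members in every library. In vehicle these were followed by Nfkb1 (95.1 ± 17.4 FPKM), Rela (87.2 ± 8.32 FPKM), Nfkbie (68.6 ± 19.4 FPKM) and Nfkbib (68.3 ± 3.84 FPKM). Neighbours among these 4 overlapped in their vehicle libraries. The lowest deposited levels were those of Nfkb2 (36.4 ± 6.06 FPKM), Rel (31.1 ± 8.66 FPKM), Bcl3 (26.0 ± 6.00 FPKM) and Relb (25.5 ± 4.89 FPKM), and neighbours in this order overlapped too. In TP-18 libraries Bcl3 was last at 13.6 ± 2.30 FPKM, below Relb at 15.5 ± 1.69 FPKM, and these also overlapped.

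The place of Nfkb2, Nfkb1 and Relb in that order rests on the length used. The deposited FPKM imply a length of 10990 bases for Nfkb2. Its longest coding transcript in GENCODE M21 has 3846 bases and the union of its exons 4584, and its whole span there is also shorter than 10990. Whether the counts cover bases outside these exons is not known, so levels on shorter lengths may be too high. With the longest coding transcript as length, Nfkb2 had 104 ± 17.3 FPKM in vehicle libraries, the third highest in place of the seventh. Relb, whose implied length was 6167 bases against a longest coding transcript of 2209, had 71.3 ± 13.7 FPKM on that scale. Nfkb1 had 95.5 ± 17.5 FPKM with its longest coding transcript and 32.6 ± 5.98 FPKM with the union of its exons, which spans 12061 bases. Nfkbia stayed first and Nfkbiz second under all 3 lengths in both groups. A fold change between groups is not touched by the length, but the sizes of the ratios to Rela above are. On the longest coding transcript Rela had 92.2 ± 8.79 FPKM in vehicle libraries, a lower mean than that of Nfkb2.

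**Figure D4:**
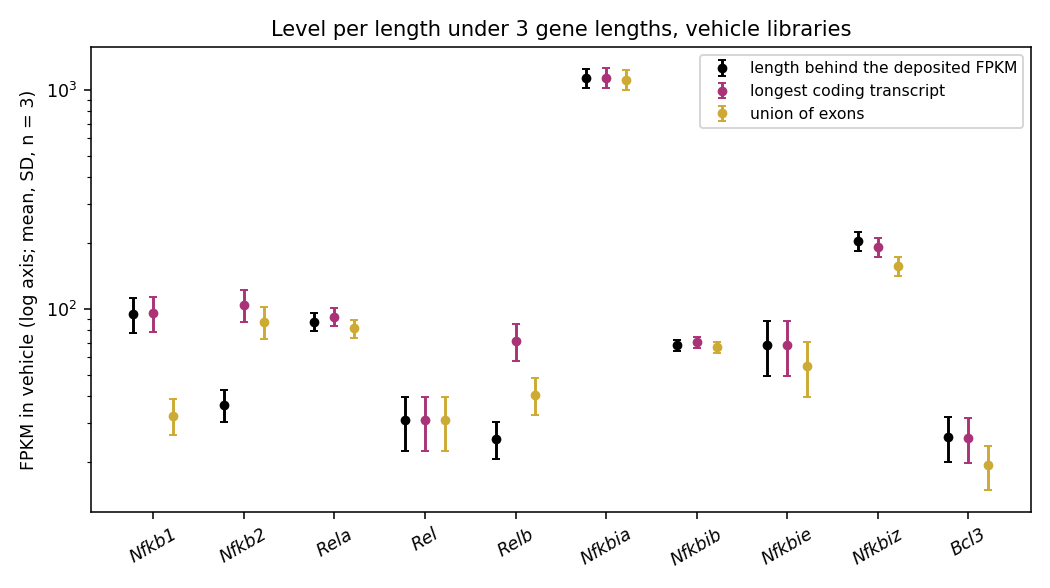
Mean FPKM in the 3 vehicle libraries (log axis, bars are SD) with the length behind the deposited values, with the longest coding transcript and with the union of exons of GENCODE M21. Nfkbia and Nfkbiz stay above the rest, while Nfkb2, Nfkb1 and Relb shift with the length.

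Because several of these genes are textbook targets of NF-kB, the sequence around their start sites was searched for the 10-base kB motif on both strands. RefSeq windows on GRCm38.p6, from 250 bases before to 50 after a start, were present for 7 of the 10 genes, in 9 windows. Those of Nfkb1, Relb and Nfkbiz were not used here. A match was found for 5 of the 7 genes (Nfkb2, Rel, Nfkbia, Nfkbie and Bcl3), against 9.55% of 27025 genes with such a window. The windows of Rela and Nfkbib held none. With 1 mismatch allowed, all 9 windows of the members held a match, against 63.2% of 32851 windows. The split of the genes therefore rests on full matches. The log2 fold changes were -1.11 to -0.43 in the 5 genes with a full match and -0.93 and -0.86 in Rela and Nfkbib. A match describes these letters only, and says nothing of binding by NF-kB, nor does its absence. The 30 bases around each match are shown so that they can be compared, with the match in capitals. In Rel and in the first line of Nfkb2 the capitals hold 2 overlapping matches.
Nfkbia (chr12:55492657-55492686, minus strand): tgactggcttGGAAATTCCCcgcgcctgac
Nfkbie (chr17:45555584-45555613, plus strand): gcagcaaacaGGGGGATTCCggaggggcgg
Bcl3 (chr7:19822734-19822763, minus strand): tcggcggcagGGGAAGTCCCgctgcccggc
Rel (chr11:23771041-23771070, minus strand): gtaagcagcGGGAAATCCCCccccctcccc
Nfkb2, first start (chr19:46304689-46304718, plus strand): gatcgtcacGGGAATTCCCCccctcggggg
Nfkb2, first start, nearer match (chr19:46304716-46304745, plus strand): ggggccgaaaGGGGCTTTCCcggctggagc
Nfkb2, second start (chr19:46305449-46305478, plus strand): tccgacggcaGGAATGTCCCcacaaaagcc
Nfkb2, second start, after it (chr19:46305695-46305724, plus strand): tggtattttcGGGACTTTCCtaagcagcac

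The match of Nfkbia begins 29 bases before its start, that of Nfkbie 106 bases before and the first of Rel 92 bases before, while that of Bcl3 lies just after the start. The last line of Nfkb2 also falls in the window of its last start. To set a promoter with a full match beside one without, the bases that precede the annotated gene are given for Nfkbia and Rela. Nfkbia is the most abundant member and Rela the subunit used as the reference above. The first has 1 full match in capitals and the second none.
Nfkbia promoter (chr12:55492648-55492897, minus strand): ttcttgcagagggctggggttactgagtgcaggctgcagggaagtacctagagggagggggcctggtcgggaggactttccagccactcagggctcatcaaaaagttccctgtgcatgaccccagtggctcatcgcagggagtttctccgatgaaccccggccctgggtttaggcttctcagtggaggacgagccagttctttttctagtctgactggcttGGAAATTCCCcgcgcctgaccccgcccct
Rela promoter (chr19:5637291-5637482, plus strand): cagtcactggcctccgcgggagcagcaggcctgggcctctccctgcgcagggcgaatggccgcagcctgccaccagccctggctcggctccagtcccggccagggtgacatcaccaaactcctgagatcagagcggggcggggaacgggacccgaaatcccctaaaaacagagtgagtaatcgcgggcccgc

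On GRCm38 all 10 genes are protein-coding in GENCODE M21. Nfkb1 (Entrez 18033) spans 135584655 to 135691547 on chromosome 3, Rel (19696) 23736847 to 23770970 on chromosome 11, Nfkbia (18035) 55489410 to 55492647 on chromosome 12, Nfkbiz (80859) 55811375 to 55838899 on chromosome 16 and Nfkbie (18037) 45555703 to 45563169 on chromosome 17. Chromosome 19 holds Rela (19697) at 5637483 to 5648130 and Nfkb2 (18034) at 46304320 to 46312385. Chromosome 7 holds Relb (19698) at 19606217 to 19629438, Bcl3 (12051) at 19808462 to 19822770 and Nfkbib (18036) at 28758251 to 28767512. Exons of Nfkb2 share 531 bases with the noncoding gene AC114539.1 and 299 with Psd, both on the opposite strand, those of Nfkbib share 314 bases with Ccer2 and 42 with Sirt2, and those of Bcl3 share 161 bases with Gm16175. Whether strand was used in counting is not given in the sources used here, so reads in these stretches cannot be told apart. Psd had 28 to 46 counts and Ccer2 1 to 5 in a library, against at least 4843 for Nfkb2 and 1489 for Nfkbib, while Sirt2 had 1745 to 2089.

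Within each group the members did not all move together. Vehicle 2 was the lowest vehicle library for 7 of the 10 genes and TP-18 2 the lowest TP-18 library for 8, but vehicle 2 and TP-18 2 were each the highest of their group for Nfkbia. Of 14 macrophage markers, vehicle 2 was the lowest of its group for 11 and the highest for 1, and TP-18 2 was the lowest for 8 and the highest for 2. Adgre1 (99.9 and 108 CPM in vehicle 2 and TP-18 2) was among those lowest in both, while Mrc1 was the lowest of its group in vehicle 2 (720.6 CPM) and the highest in TP-18 2 (898 CPM). Of 6 tested neutrophil markers, vehicle 2 was the highest for 5 and TP-18 2 for 3, among them S100a8 (90.6 and 59.6 CPM) and Mmp8 (103 and 36.1 CPM). Summed over these 6, levels ran from 55.8 to 229 CPM in vehicle and from 60.0 to 134 CPM in TP-18 libraries, so these overlapped between the groups. The part of these markers in the spread of the members was not tested. How often each library was the lowest or highest of its group over all genes was not counted. The counts above are therefore not shown to be particular to the members or the markers. Leaving out vehicle 2 gave a log2 fold change of -0.66 for Rel, against -0.43 with all libraries, and -0.76 for Nfkbia.

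**Figure D5:**
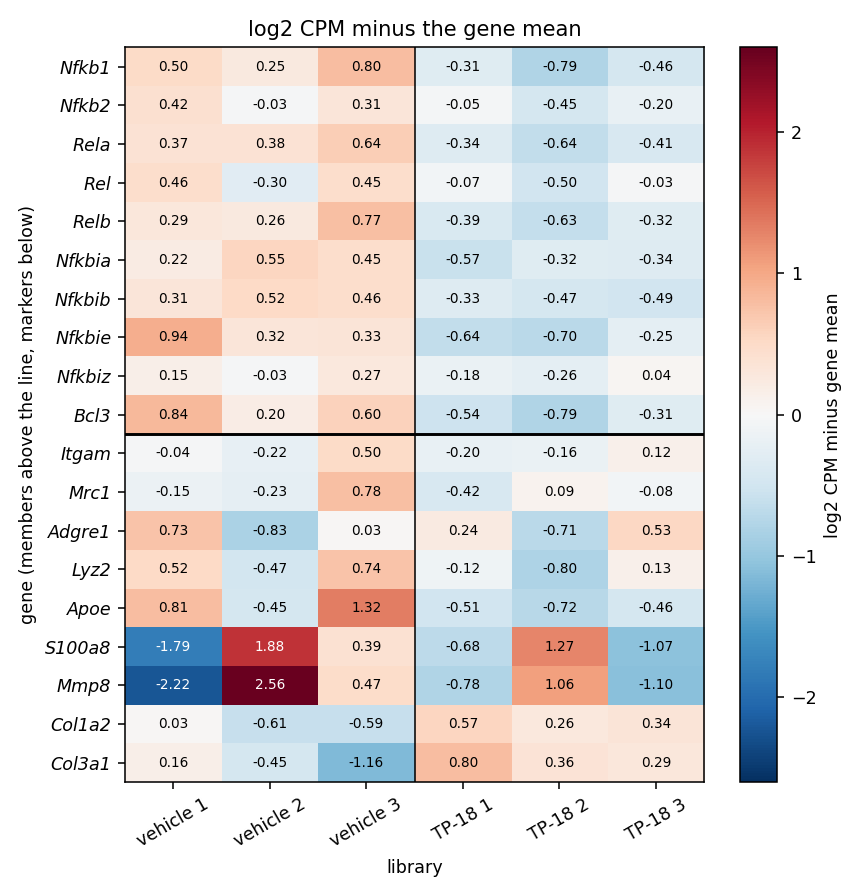
Log2 CPM minus the gene's mean over the 6 libraries, for the 10 members (above the line) and 9 marker genes of macrophages, neutrophils and fibroblasts (below). Members are above their mean in most vehicle libraries and below it in most TP-18 libraries, while S100a8 and Mmp8 are highest in vehicle 2 and TP-18 2.

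Markers of the cell types that the samples could hold are given by list, with no test of a list. The summed levels of the 2 groups overlapped for the macrophage, neutrophil, endothelial, T and NK cell, B cell and carcinoma markers and were separate for the fibroblast, mast cell and dendritic cell markers. Of 14 macrophage markers 11 had a negative log2 fold change and 3 a positive one, with a median of -0.28. Their summed level was 12165 to 27343 CPM in vehicle and 10952 to 15567 CPM in TP-18 libraries. Apoe, the most abundant, had 7371 ± 3942 CPM with vehicle and 3013 ± 284 CPM with TP-18 (log2 fold change -1.29, edgeR adjusted p = 0.212). Its vehicle 2 (3248 CPM) lay just above TP-18 3 (3229 CPM). Lyz2 was at -0.56, with overlap. Of the 14 markers 3 were separate and lower and 0 separate and higher, against 11.7% and 11.6% of all genes. With the libraries scaled by the geometric mean count of the 14 markers, a choice made after seeing the data, the 10 members had a median of -0.66 against 0.24 over all genes. The edgeR adjusted p-values of the members were 0.585 to 0.994 on that scale, and all 10 values remained negative. Of 12 fibroblast and pericyte markers 11 were positive, and their summed level of 1515 to 1888 CPM in TP-18 libraries lay above the 754 to 1217 CPM in vehicle. The collagen gene Col1a2 was at 590.1 ± 159 CPM with vehicle and 994 ± 111 CPM with TP-18 (SD, n = 3 each). The 5 tested mast cell and basophil markers summed to 3.24 to 5.65 CPM in vehicle and 10.6 to 32.4 CPM in TP-18 libraries. The 4 tested dendritic cell markers summed to 8.68 to 14.4 CPM and 5.75 to 6.01 CPM, with Xcr1 and Clec9a, among others, below the filter. The 6 tested carcinoma and epithelial markers summed to 498 to 707 CPM in vehicle and 295 to 570.2 CPM in TP-18 libraries. Of these, 4 were negative and 2 positive, with a median of -0.13. Krt20, the most abundant of them, had 436 ± 92.1 CPM with vehicle and 415 ± 152 CPM with TP-18. Sox9, a transcription factor gene in that list, fell from 149.8 ± 16.2 to 44.9 ± 3.07 CPM (SD, n = 3 each; edgeR adjusted p = 0.0137), the 1 marker past the threshold. That call remained without vehicle 1 (0.0315) and ended without any other library (edgeR adjusted p = 0.0562 to 0.190) and with a replicate block (0.0502). The 9 endothelial markers, all positive, summed to 37.2 to 198 CPM and 109.9 to 199.95 CPM. The 8 tested T and NK cell markers summed to 13.3 to 30.7 CPM and 9.23 to 22.8 CPM, and the 2 tested B cell markers to 1.13 to 3.93 CPM and 2.39 to 8.19 CPM. No listed marker with a row in the table was at 0 in all 6 libraries. The part of these cell types in the levels of the members was not tested.

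The machinery upstream of the members had smaller medians. Of 12 genes of the IkB kinase complex and its upstream kinases, 0 passed in either direction, 7 were negative and the median log2 fold change was -0.06. Tab1, an adaptor of the kinase TAK1, had 12.3 ± 1.41 CPM with vehicle and 21.9 ± 1.32 CPM with TP-18 (edgeR adjusted p = 0.131). Chuk, which encodes the kinase IKK-alpha, had 99.6 ± 8.63 and 81.6 ± 6.53 CPM (edgeR adjusted p = 0.329). The kinase genes Tbk1 and Ikbke had log2 fold changes of -0.39 and -0.44 (edgeR adjusted p = 0.334 and 0.406). Of 11 genes of ubiquitin ligases, their adaptors and ubiquitin-conjugating enzymes that act before the kinase, 0 passed and the median was -0.18, with Traf2 at -0.33, Ube2n, which encodes the conjugating enzyme UBC13, at -0.32, Traf3 at -0.63 and Birc3 at -0.38. Of 5 measured genes of the SCF ligase, which marks phosphorylated IkB for the proteasome, 0 passed and the median was -0.11. Its substrate receptor gene Btrc was at 0.30, with no overlap between the groups, and Fbxw11, Cul1 and Skp1 were at -0.20, -0.18 and -0.11, of which Cul1 and Skp1 were above 0 with library totals as scaling.

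Of 17 other negative regulators of the pathway, 0 passed and the median was -0.09. Those with the smallest p were Zc3h12a, Tnip1, Tnfaip3 and Nfkbil1. Zc3h12a, which encodes the RNase Regnase-1 that cuts inflammatory transcripts, had 196, 159 and 204 CPM in vehicle and 95.7, 70.8 and 86.3 CPM in TP-18 libraries. Its log2 fold change was -1.14 ± 0.17 (edgeR adjusted p = 0.0756), and it was 1 of the genes DESeq2 called lower. Tnfaip3, which encodes the ubiquitin-editing enzyme A20, had 1607 ± 286 and 1037 ± 69.8 CPM, a log2 fold change of -0.63, and Tnip1, its binding partner, was at -0.76 (edgeR adjusted p = 0.177 for both). Nfkbil1 had 17.4 ± 2.87 and 23.8 ± 2.55 CPM. Of 12 ligands and receptors of the noncanonical branch 8 were tested, 0 passed, and the median was -0.07. Among these, Tnfrsf12a, the receptor of TWEAK, was at -0.52, its ligand gene Tnfsf12 at -0.33, Tnfsf14 at -1.31 and the lymphotoxin receptor gene Ltbr at 0.23.

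Of 40 genes listed as NF-kB targets outside the 10, 34 were negative and the median was -0.64. The list overlaps one examined before on these samples, so it is no independent evidence of direction. At an edgeR adjusted p under 0.05, 3 of the 40, Lif, Traf1 and Csf1, were lower and 0 were higher. Over all genes the shares were 0.0865% lower and 0.0236% higher. Lif, a cytokine, went from 96.0 ± 18.6 to 29.3 ± 3.54 CPM, Traf1, a signalling adaptor, from 127 ± 23.5 to 39.3 ± 5.70 CPM and Csf1, the macrophage growth factor, from 516 ± 47.6 to 164 ± 35.6 CPM (SD, n = 3 each). Their edgeR adjusted p-values were 0.0416, 0.0420 and 0.0428, with log2 fold changes of -1.71, -1.70 and -1.65, each larger than that of any member. With vehicle 1 left out Lif and Traf1 still passed (0.0374 and 0.0350) and Csf1 did not (0.0758). Leaving out any other library ended all 3 calls (edgeR adjusted p = 0.102 to 0.221), as did library totals as scaling (0.0603 to 0.0651). Gadd45b, a stress-induced gene, came next at -0.94 ± 0.14 (edgeR adjusted p = 0.0756).

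The genes whose pattern over the 6 libraries was most like that of a member were sought among 9178 genes with a mean of at least 10 CPM, by the root mean square difference of log2 CPM centred on each gene's mean. Closest to Nfkbia were Tmem120a (0.0748), Emp1 (0.0799), Map1lc3a (0.0893), Crebzf (0.0999) and Rybp (0.101), against a median difference of 0.474 over all genes compared. Emp1, a membrane protein gene, had 3547 ± 548 CPM with vehicle and 2103 ± 85.8 CPM with TP-18 (SD, n = 3 each). The nearest other member to Nfkbia was Nfkbib (0.137), and Rel was the farthest (0.442). Closest to Nfkb1 were Zc3h12a (0.0954), Rfx2 (0.103), Dusp16 (0.112), Plk2 (0.132) and Slc11a2 (0.139), against a median of 0.595. Rela (0.118) and Relb (0.127) were about as near to Nfkb1 as these, followed by Bcl3 (0.197), and Nfkbiz was the farthest member (0.413).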

How the data were processed

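The authors deposited raw counts for 17191 genes and a matching table of FPKM for the same 6 libraries. The submitters' processing notes list the tools fastp, HISAT2 and HTSeq and the build GRCm38. Not given in the sources used here are versions, settings, the annotation release and the use of strand in counting. Each deposited FPKM value is the count over the library total and over 1 length per gene, which was checked on every gene.

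Libraries were grouped by the treatment label. TP-18 was compared with vehicle by edgeR 4.0.16 (R 4.3.3) with its quasi-likelihood test, TMM factors, filterByExpr at its defaults (count 10, total 15), no covariates and a Benjamini-Hochberg threshold of 0.05 over all genes tested. An SE is the absolute log2 fold change over the square root of F. Replicates differed by more than counting noise (mean chi-square per gene 27.8 to 81.4), so none was treated as a copy of another. On simulated counts for this comparison (12577 genes) the test found 2 of 67 genes changed by 1.5-fold, 22 of 67 at 2-fold and 57 of 65 at 4-fold. Of its 91 calls, 10 were unchanged genes. Each gene was drawn independently and 200 were set to change, while the real fit called 14 genes. These shares therefore need not hold for the real libraries. Tried as alternatives were RLE factors, library totals, DESeq2 1.42.0, limma-voom, limma 3.58.1 on log2(FPKM + 1) or log2(FPKM + 0.1), a replicate block, other low-count filters and leaving out each library. Scaling by macrophage markers and other gene lengths were added after seeing the data.

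The members and gene lists were chosen with earlier results of these data known. Named were all members; from each pathway list the genes past the threshold and then those of smallest p, up to 4; for Nfkbia and Nfkb1 the 5 genes of most similar pattern; the sort markers; and abundant genes of marker lists. Sox9, Xcr1 and Clec9a were named with their values known. Skp1a, Ly6g and Trac had no row under those symbols. Promoter windows are from RefSeq, and protein sequences were not used here. Figures were drawn with matplotlib 3.10.9.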

Additional observations from a re-analysis of the deposited data

How the results depend on the processing

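Each of the 10 members kept a negative log2 fold change in all 16 alternatives, and none passed the threshold outside DESeq2, which called 7 lower. The count of genes lower, 11 in the edgeR fit, was 1 with library totals and with either limma fit on FPKM, 339 with DESeq2, 20 with no low-count filter, 0 with a replicate block, 26 when scaled by macrophage markers and 0 to 5 with 1 library left out. The count of genes higher, 3 in that fit, was 160 with DESeq2, 1 with either limma fit on FPKM, 7 with no low-count filter, 44 when scaled by macrophage markers and 0 to 3 with 1 library left out. Of the pathway genes, 3 were lower in that fit, and 0 with library totals, with either limma fit on FPKM or with a replicate block, 15 with DESeq2, 5 when scaled by macrophage markers and 0 to 2 with 1 library left out; 1, Tab1, was higher with DESeq2. The cause of these shifts was not tested.

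Whether the replicate numbers pair the libraries is not known. Same-numbered deviations from the group means correlated across genes at 0.161, 0.390 and -0.152, and different-numbered ones at -0.592 to 0.496. Deviations from a mean of 3 libraries are tied to one another, so these values cannot decide it. With the replicate block 0 members passed. The median log2 fold change of the members, -0.88, was -0.87 with the block, -0.70 with library totals, -0.67 and -0.69 with limma on log2(FPKM + 1) and log2(FPKM + 0.1), and -0.66 when scaled by macrophage markers.

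With 1 library left out, the level of each member relative to Rela changed sign for 5 members. The log2 differences ran from -0.32 to 0.12 for Nfkbie, from -0.30 to 0.023 for Bcl3, from -0.0045 to 0.12 for Relb, from -0.0064 to 0.16 for Nfkbib and from -0.023 to 0.25 for Nfkbia. Vehicle levels became, with exon unions as length, 32.6 FPKM for Nfkb1, 87.2 for Nfkb2, 40.6 for Relb, 157 for Nfkbiz and 19.3 for Bcl3, and with the longest coding transcript 104 for Nfkb2 and 71.3 for Relb.

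Among other named genes, the log2 fold change turned positive when scaled by macrophage markers for Fbxw11 (0.030), Cul1 (0.049), Skp1 (0.084), Itgam (0.079) and Adgre1 (0.28), and with library totals for Cul1 (0.0013), Skp1 (0.062) and Adgre1 (0.16). With limma on log2(FPKM + 1) it did so for Skp1 (0.055), Itgam (0.018) and Adgre1 (0.21), and on log2(FPKM + 0.1) for Skp1 (0.056), Itgam (0.018) and Adgre1 (0.22). Adgre1 was at 0.040 with limma-voom and with the replicate block. With 1 library left out, values ran from -0.33 to 0.42 for Adgre1, from -1.68 to 0.54 for S100a8, from -2.27 to 0.36 for Mmp8, from -0.34 to 0.040 for Itgam and from -0.53 to 0.054 for Mrc1.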
